A study of Mus musculus with 9 samples.

Results

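The genes described here are the sensors, adaptors, caspases and pore protein of the inflammasome, followed in regulatory T cells (Tregs, the CD4 T cells that express Foxp3 and restrain immune responses). They are Naip2, Naip5, Naip6, Nlrc4, Nlrp3, Pycard, Casp1, Casp4 and Gsdmd, 9 of the 21019 named genes measured. Naip2 was picked because its level was higher in Tregs of resolving lungs, so its differences are given as values with no test. The other 8 members were taken as its partners in the pathway and were tested in a fit over all named genes. The cells were CD4+ GFP+ lymphocytes sorted from Foxp3EGFP mice on the C57BL/6 background, aged 8 to 12 weeks, in which the green fluorescent protein reports Foxp3. Resolving lung Tregs came from lungs recovering from an injury by Escherichia coli lipopolysaccharide instilled into the trachea at 3 mg/kg, control lung Tregs from uninjured lungs, and resolving splenic Tregs from spleens of mice with the same lung injury. Each group had 3 Affymetrix Mouse Gene 2.1 ST arrays of 225 ng total RNA. Harvest day and the number of mice per array are not given in the sources used here, and no label says whether replicates are different mice. The p-values therefore cover the spread among these arrays, part of which may be technical.

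Inflammasomes are cytosolic protein complexes, best known from macrophages, that turn the detection of microbial products or cell damage into caspase activation. In mice the Naip proteins bind bacterial proteins directly, Naip2 the inner rod of bacterial secretion systems and Naip5 and Naip6 flagellin, and then assemble with the adaptor Nlrc4. Nlrp3 answers to ion fluxes and membrane damage through the adaptor Pycard (also called ASC), Casp1 matures interleukin-1 beta and interleukin-18, Casp4 (mouse caspase-11) binds cytosolic lipopolysaccharide, and the cut form of Gsdmd makes the membrane pores of pyroptosis.

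All values are log2 expression values. A signal was called dim where it did not exceed the 95th percentile of the 909 olfactory receptor genes of its array, taken as genes that are silent in lymphocytes. That level lay between 3.33 and 3.52 in the 9 arrays. Of the 9 members, 7 lay above it in all 9 arrays, Nlrp3 in some, and Nlrc4 in none. The sort label was checked on the arrays, and all 6 Treg and T cell markers (Foxp3, Cd4, Cd3e, Il2ra, Ctla4 and Ikzf2) lay above the dim level everywhere, with a list mean between 10.45 and 10.68. Transcripts of other cells were present too. Over the 3 replicates of each group, the 10 measured macrophage or monocyte markers averaged 7.32, 5.34 and 5.44 in resolving lung, 5.53, 5.10 and 4.56 in control lung and 5.94, 5.16 and 5.17 in resolving spleen. Of these 10 markers, 10, 8 and 8 lay above the dim level in resolving lung, 8, 7 and 6 in control lung and 9, 8 and 8 in resolving spleen. Resolving lung replicate 1 stood apart, also with 3 of 8 dendritic cell markers, 7 of 7 neutrophil markers and 5 of 6 fibroblast markers above the dim level, and values without it stand beside many of the differences that it moved. Epithelial markers averaged 6.11, 5.31 and 5.47 in resolving lung, 8.08, 6.92 and 6.86 in control lung and 3.47, 3.88 and 4.36 in resolving spleen. B cell markers averaged 4.66, 4.91 and 4.71 in resolving lung, 5.39, 5.56 and 5.45 in control lung and 5.80, 7.03 and 6.30 in spleen. Erythroid markers averaged 3.14, 7.13 and 3.51 in resolving lung and 6.85, 7.96 and 6.23 in spleen. Control lung replicate 1 had 4 of 6 endothelial and 3 of 6 fibroblast markers above the dim level. Bulk RNA cannot tell more cells of a type from more RNA per cell.

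Naip2, Naip5 and Naip6 are neighbouring copies in 1 gene cluster on chromosome 13, with no other protein-coding gene between them. The stretches before their starts are shown because the 3 copies did not all share a pattern over the arrays. Over the 9 arrays Naip5 and Naip6 correlated at a Pearson r of 0.64, and Naip2 with Naip5 and Naip6 at 0.031 and 0.30. The sequences are the 150 bases before the annotated gene start on the minus strand, from RefSeq (GRCm38.p6), where 8 of the 9 members had an entry and Gsdmd had none. Capitals mark CACTTCCT, the reverse complement of AGGAAGTG, which holds the GGAA core of the Ets factor family.
Naip2, chr13:100202123-100202272: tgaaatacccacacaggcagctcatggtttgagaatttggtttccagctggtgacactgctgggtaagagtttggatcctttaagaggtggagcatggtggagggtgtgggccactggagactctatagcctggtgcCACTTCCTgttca
Naip5, chr13:100247337-100247486: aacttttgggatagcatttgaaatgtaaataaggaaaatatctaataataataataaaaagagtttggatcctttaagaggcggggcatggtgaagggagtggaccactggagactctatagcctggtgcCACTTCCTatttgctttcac
Naip6, chr13:100316617-100316766: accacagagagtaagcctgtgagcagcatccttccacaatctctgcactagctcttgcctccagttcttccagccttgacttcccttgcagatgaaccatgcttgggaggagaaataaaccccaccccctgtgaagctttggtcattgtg
Windows of 300 bases (250 before the start and 50 after it) were compared. The best local alignment of Naip2 with Naip5 covered 134 columns with 123 identical (91.8%), and that of Naip2 with Naip6 only 19 columns with 15 identical. That of Naip5 with Naip6, the pair with the highest r of the 3, covered 30 columns with 23 identical. AGGAAGTG, searched on both strands, was in the windows of Naip2, Naip5, Nlrc4 and Pycard, and in 4.07% of all 32851 promoter windows. The Ets-interferon composite element and the core of the interferon-stimulated response element, which share their last letters, were in no member's window, against 2.72% and 3.44% of all windows. Such matches describe letters and show no binding.

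Naip2 stood at 5.89, 5.79 and 5.57 in resolving lung replicates 1, 2 and 3, against 4.86, 5.06 and 5.04 in control lung and 4.89, 5.25 and 5.02 in resolving spleen. Every resolving lung array was above every array of the other groups, while control lung and spleen overlapped. The means were 5.75 ± 0.17 in resolving lung, 4.99 ± 0.11 in control lung and 5.05 ± 0.18 in resolving spleen (SD, n = 3 each). Resolving lung was 1.69-fold above control lung (log2 difference 0.76) and 1.62-fold above spleen (0.70), and control lung stood 0.064 below spleen, the values for which the gene was picked. Without resolving lung replicate 1 the log2 difference from control lung was 0.69, and replicates 2 and 3, at 5.79 and 5.57, had macrophage list means (5.34 and 5.44) inside the range of control lung. Single macrophage markers differed even so, with Adgre1 at 4.41 and 4.64 in these 2 arrays against 3.85, 3.47 and 3.11 in control lung. Cd68, Csf1r, Itgam and Fcgr1 (dim in these arrays) were likewise above every control lung array in both. Mertk, Marco, Chil3, Mrc1 and Ly6c2 were not. The part of the macrophage markers in the Naip2 level was not tested.

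The flagellin sensors did not show the pattern of Naip2. Naip5 was at 5.87, 3.54 and 5.08 in resolving lung, against 4.04, 5.61 and 4.21 in control lung and 5.71, 5.30 and 4.62 in resolving spleen. Its highest and its lowest value over the 9 arrays both lay in resolving lung, so the groups overlapped throughout. The log2 difference of resolving from control lung was 0.22 (95% interval -1.23 to 1.66, limma adjusted p = 0.917, and -0.30 without resolving lung replicate 1), an interval wide enough to hold a difference as large as that of Naip2. Naip6 was at 5.88, 5.41 and 5.58 in resolving lung, against 4.64, 5.65 and 4.48 in control lung and 5.97, 5.28 and 5.84 in resolving spleen. Control lung replicate 2 was as high as the resolving lung arrays, and the other 2 control arrays were below every array of both injured groups. The difference of resolving from control lung was 0.70 (95% interval -0.018 to 1.42, adjusted p = 0.368), and that of control lung from spleen was -0.77 (95% interval -1.49 to -0.053, adjusted p = 0.228). Without control lung replicate 2 the second became -1.14, with an adjusted p of 0.0366 (range over all settings 0.0366 to 0.492). The Naip copies resemble each other in sequence, and how far their probes share signal was not tested.

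Nlrc4, the adaptor through which the Naip proteins act, was dim in every array. It was at 3.18, 2.73 and 2.75 in resolving lung, against 2.74, 2.99 and 2.64 in control lung and 2.89, 2.89 and 2.56 in resolving spleen, all below the dim level of their arrays, so no fold is given. Naip2, Naip5 and Naip6 lay above the dim level in the same 9 arrays.

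Nlrp3, the sensor of membrane damage and ion flux, differed more within resolving lung than between groups. It was at 6.25, 4.23 and 3.20 in resolving lung, against 3.44, 3.62 and 3.38 in control lung and 3.17, 2.98 and 2.75 in resolving spleen. Replicate 1 of resolving lung was the highest of all arrays. Replicate 3 of resolving lung, replicate 3 of control lung and every spleen array lay below the dim level. Both lung groups were above spleen in every array, as were 11.3% of all genes in resolving lung and 11.6% in control lung. For the dim lung arrays (3.20 and 3.38, beside 3.17 at most in spleen) this is an order among dim values. The log2 difference of resolving from control lung was 1.08 (95% interval -0.37 to 2.53, adjusted p = 0.495) and became 0.24 without resolving lung replicate 1. The resolving lung mean stood 1.17 above the dim level of spleen (2.26-fold), and 0.33 (1.26-fold) without resolving lung replicate 1. This bound concerns the observed means and holds no sampling error. The fitted difference from spleen was 1.60 (95% interval 0.15 to 3.04, limma adjusted p = 0.219) and became 0.75 without resolving lung replicate 1. Without resolving lung replicate 3 the fitted difference became 2.28, with an adjusted p of 0.0487 (range over all settings 0.0487 to 0.430). The macrophage markers had their highest mean, 7.32, in the same array, with Marco at 5.08 against 2.53 and 2.16 in replicates 2 and 3 and Fcgr1 at 5.95 against 3.38 and 3.38; their part in the Nlrp3 level was not tested.

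Pycard, the adaptor that links sensors to Casp1, was well above the dim level in all groups. It was at 6.75, 7.19 and 6.82 in resolving lung, against 6.26, 6.34 and 6.96 in control lung and 6.48, 6.80 and 6.65 in resolving spleen. Control lung replicate 3 exceeded 2 of the 3 resolving lung arrays, and the difference of 0.40 (95% interval -0.048 to 0.85, adjusted p = 0.412) did not pass the test.

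Casp1, which matures interleukin-1 beta and interleukin-18, was at 7.82, 7.79 and 7.52 in resolving lung, against 6.96, 7.41 and 7.26 in control lung and 7.57, 7.46 and 7.58 in resolving spleen. Its resolving lung arrays were all above the control lung arrays and overlapped those of spleen, and control lung was below spleen in every array. The log2 difference of resolving from control lung was 0.50 (SE 0.13, 95% interval 0.22 to 0.79), with the smallest adjusted p of the 8 tested members, 0.129. Casp4 was at 8.15, 8.01 and 7.72 in resolving lung, against 7.30, 7.74 and 7.70 in control lung and 7.72, 7.72 and 7.63 in resolving spleen. Its lowest resolving lung array lay just under the highest control lung array, with a difference of 0.38 (SE 0.14, 95% interval 0.058 to 0.71, adjusted p = 0.271). Both caspase genes are next to each other on chromosome 9, with no protein-coding gene between them. Without resolving lung replicate 1 their differences from control lung were 0.45 (Casp1) and 0.29 (Casp4).

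Gsdmd, the pore-forming substrate of both caspases, was the member with the narrowest difference. It was at 7.62, 7.43 and 7.23 in resolving lung, against 7.41, 7.39 and 7.39 in control lung and 7.61, 7.22 and 7.31 in resolving spleen. The resolving lung values spread around those of control lung, whose 3 arrays were almost equal. The log2 difference was 0.026 (95% interval -0.26 to 0.31, adjusted p = 0.95), which bounds a difference of resolving from control lung at 0.31 upwards and 0.26 downwards.

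**Figure D1:**
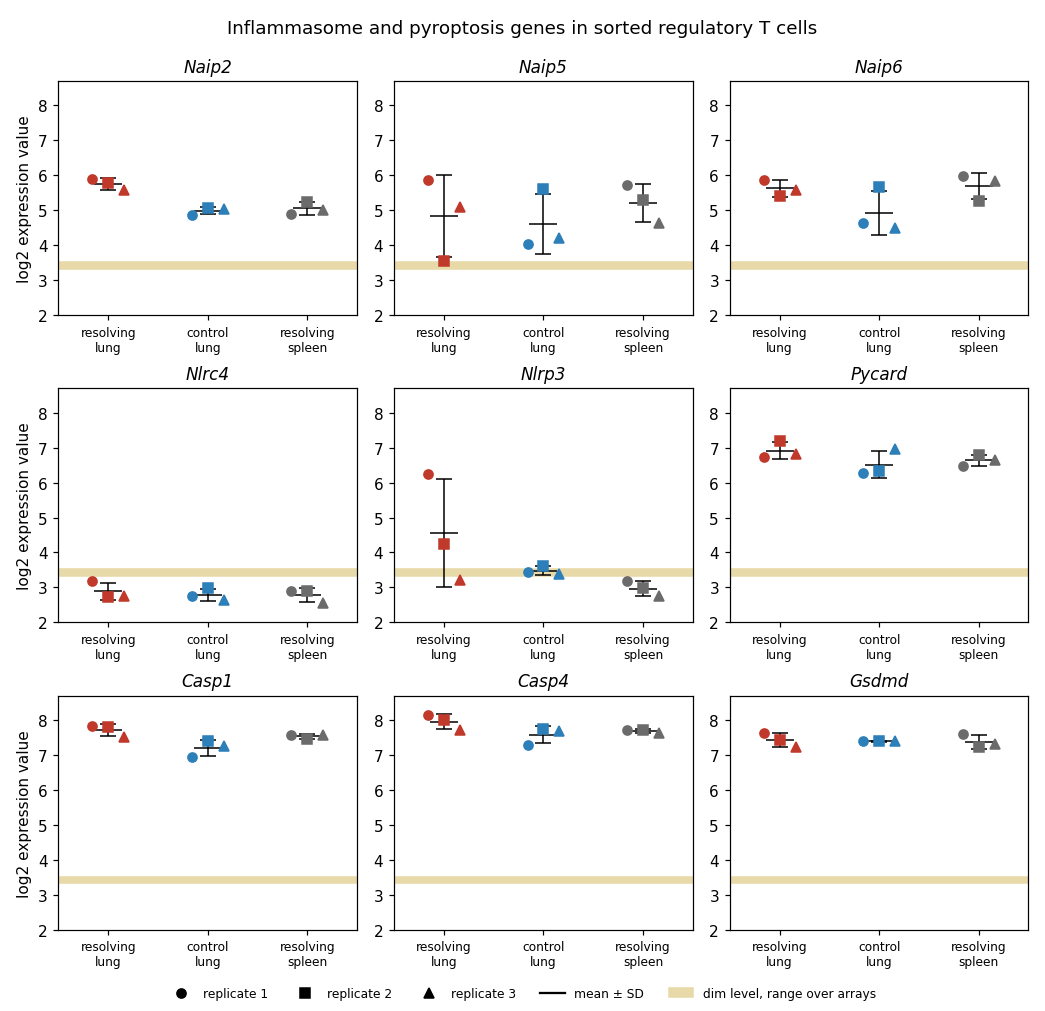
Log2 expression values (y axis) of the 9 members in each array of resolving lung, control lung and resolving spleen, with symbols for replicates, black marks for mean ± SD (n = 3) and a band for the range of the dim level over arrays (3.33 to 3.52). Naip2 lies between 5.57 and 5.89 in resolving lung, above all other arrays, Nlrp3 reaches 6.25 in 1 resolving lung array, and Nlrc4 lies below the band throughout.

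Resolving and control lung differ by the injury within the same organ. None of the 8 tested members passed an adjusted p under 0.05 (limma, Benjamini-Hochberg over all named genes), a threshold that 0.457% of the 21019 genes passed. The count stayed at 0 under all 20 other settings. At an unadjusted p under 0.05, Casp1 and Casp4 were higher and 0 members lower, 2 of 8 beside 7.61% of all genes higher. Leaving out Nlrc4, which was dim throughout, the differences of 7 of 7 were above 0, as were those of 52.5% of all genes. The median of the 7 was 0.40, beside 0.0086 over all genes. Dim genes were not left out of the values over all genes, and 44.8% to 47.5% of named genes exceeded the dim level in each array. Without resolving lung replicate 1, 5 of 7 were above 0, beside 51.9% of all genes, and the median was 0.29. Of the 8, Casp1 alone had groups that did not overlap (8.79% of all genes were higher in this way). Single differences must exceed the spread between 3 arrays, which was 1.18 for Naip5 and 1.55 for Nlrp3 in resolving lung (SD), so for these the comparison was imprecise.

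Against spleen, resolving lung Tregs had 0 of 8 members past the threshold, which 5.47% of all genes passed, and at an unadjusted p under 0.05 Nlrp3 was higher (8.20% of all genes were) and 0 members were lower. The differences of Casp1 (0.18, 95% interval -0.11 to 0.46), Casp4 (0.27, -0.056 to 0.59), Pycard (0.28, -0.17 to 0.73) and Gsdmd (0.046, -0.24 to 0.33) were small, and those of Naip5 (-0.38, -1.82 to 1.06) and Naip6 (-0.071, -0.79 to 0.65) were below 0. Control lung against spleen likewise had 0 of 8 past the threshold, against 6.16% of all genes, with Casp1 (-0.33, 95% interval -0.62 to -0.040, adjusted p = 0.200) and Naip6 below spleen at an unadjusted p under 0.05, 2 of 8 against 18.8% of all genes in either direction. Casp1 was thus lowest on average in uninjured lung, by differences that did not pass the adjusted test, and 13.8% of all genes were below spleen in every control lung array as it was. The 3 comparisons share arrays and are not independent of each other.

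**Figure D2:**
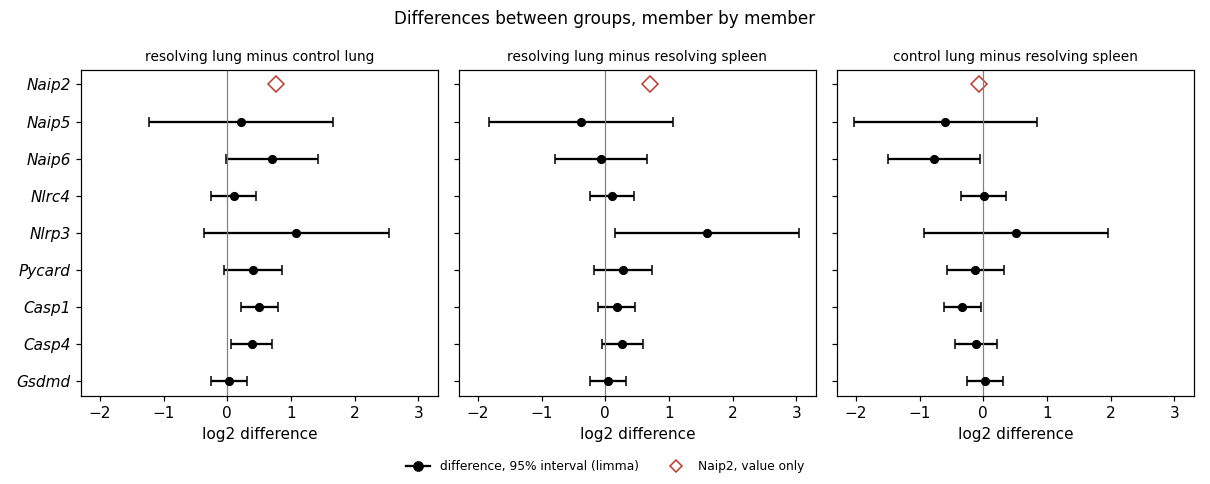
Log2 differences (x axis) of the 9 members in resolving lung minus control lung, resolving lung minus resolving spleen and control lung minus resolving spleen, as points with 95% intervals from limma, and for Naip2 the value alone (0.76, 0.70 and -0.064). The intervals are widest for Naip5 and Nlrp3 and narrowest for Gsdmd, whose interval for resolving minus control lung runs from -0.26 to 0.31.

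**Figure D3:**
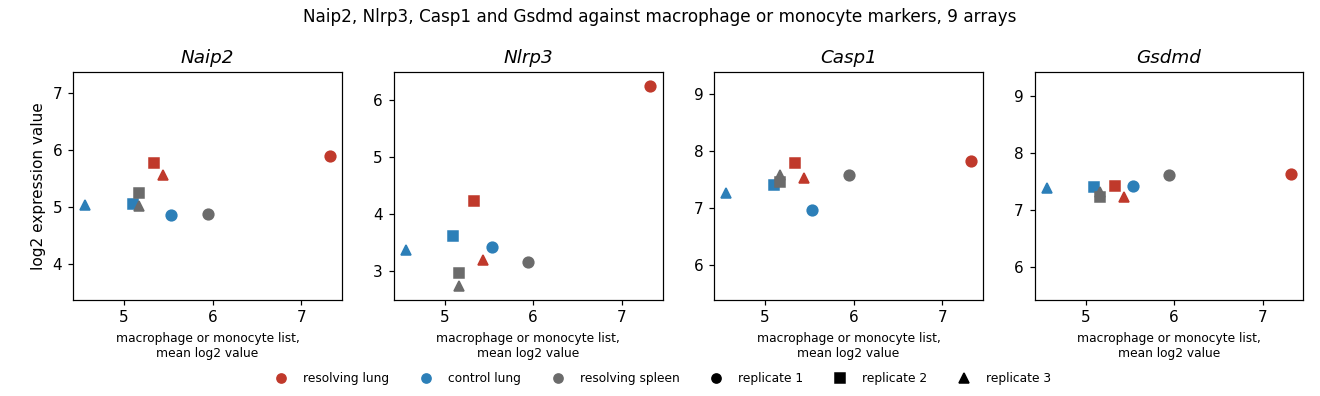
Log2 expression values of Naip2, Nlrp3, Casp1 and Gsdmd (y axes, each spanning the same range) against the mean log2 value of the macrophage or monocyte markers (x axis) in the 9 arrays, with colours for groups and symbols for replicates. Resolving lung replicate 1 lies alone at a list mean of 7.32, with Nlrp3 at 6.25, while Naip2 is at 5.79 and 5.57 in the other 2 resolving lung arrays, where the list mean is 5.34 and 5.44.

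A further 49 measured genes of inflammasome sensing and lytic death, of 53 listed by role, were read in the same fit. In resolving against control lung 0 passed the threshold (0.457% of all genes did), 18 were higher and 0 lower at an unadjusted p under 0.05 (7.61% and 6.39% of all genes were), and for 20 of 49 (40.8%) every resolving lung array lay above every control lung array, beside 8.79% of all genes. Their median difference was 0.19, and 0.20 with the same count of 20 without resolving lung replicate 1, where 13.1% of all genes were separated in this way. Of the 49, 31 exceeded the dim level in each of the 9 arrays. Of all named genes, between 44.8% and 47.5% exceeded it in a single array. The shares of all genes are thus not matched in brightness to this list, here or against spleen. The list was also chosen with earlier results of these data known, so its excess over all genes is a description and no test. The interferon-induced GTPases, which open pathogen vacuoles and bacteria to sensing, stood among the separated genes. Gm12250 (listed as Irgb10) was at 8.45, 8.01 and 7.85 in resolving lung, against 7.19, 7.55 and 7.31 in control lung (log2 difference 0.75, SE 0.16, adjusted p = 0.0895). With only genes above the dim level in at least 3 arrays tested, its adjusted p was 0.0498, at the threshold. Gbp5 was at 7.22, 6.99 and 6.77 in resolving lung, against 5.94, 6.32 and 6.54 in control lung (0.73, SE 0.19), and Gbp2 at 8.34, 8.38 and 8.15 in resolving lung, against 8.04, 7.69 and 7.58 in control lung (0.53, SE 0.12). In each of the 3 the groups did not overlap. Irf8, a transcription factor that drives Naip genes in mouse macrophages, was at 7.42, 5.83 and 5.54 in resolving lung, against 4.95, 5.01 and 5.14 in control lung (1.23, SE 0.43, adjusted p = 0.244). Its value in replicate 1 was far above the others, as with the macrophage markers, and their part was not tested. Without that array the Irf8 difference was 0.65 (adjusted p = 0.196).

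Casp8, which can also cut Gsdmd, was at 10.30, 10.32 and 10.30 in resolving lung, against 10.08, 10.01 and 9.78 in control lung (0.35, SE 0.081, adjusted p = 0.116). Its groups did not overlap, and neither did those of Ripk3, the kinase of necroptosis, at 8.35, 8.08 and 8.05 in resolving lung, against 7.75, 7.68 and 7.85 in control lung (0.40, SE 0.096, adjusted p = 0.119). Mlkl, the pore-forming target of Ripk3, was at 4.98, 4.48 and 4.05 in resolving lung, against 3.95, 3.88 and 3.35 in control lung (0.78, SE 0.24, adjusted p = 0.194), with its lowest control array below the dim level. P2rx7, the ATP-gated channel upstream of Nlrp3, was at 8.31, 8.53 and 8.52 in resolving lung, against 7.76, 8.14 and 7.68 in control lung (0.59, SE 0.13, adjusted p = 0.105). Txnip, a binding partner of Nlrp3, had a difference of -0.36 with overlap (adjusted p = 0.433), which became -0.14 without resolving lung replicate 1. The substrate cytokines varied between arrays more than between groups. Il1b was at 10.01, 6.59 and 6.40 in resolving lung, against 7.54, 6.32 and 4.87 in control lung (1.42, SE 1.03, adjusted p = 0.586, and 0.25 without resolving lung replicate 1), highest in each group in the replicate with the most macrophage transcripts. Il18 was at 5.50, 5.09 and 4.50 in resolving lung, against 4.81, 5.11 and 4.86 in control lung (0.10, SE 0.22, adjusted p = 0.884, and -0.14 without that array), so the groups overlapped. Il1a, released by dying cells, was at 8.44, 6.05 and 4.89 in resolving lung, against 6.57, 4.63 and 3.75 in control lung, also with overlap (1.47, and 0.48 without that array). Il1r1 and Il1r2, the signalling and the decoy receptor of interleukin-1, had differences of 1.62 (SE 0.43) and 1.46 (SE 0.50) with no overlap, at adjusted p values of 0.151 and 0.236. These differences were 1.29 and 0.76 without resolving lung replicate 1.

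Most further sensors were dim. Naip1, Nlrp1a, Nlrp6, Nlrp10 and Nlrp12 did not exceed the dim level in any of the 9 arrays, nor did the gasdermins Gsdma and Gsdmc or the caspase Casp12, 8 of the 49 genes. Mefv and Ifi204 were at 3.41 and 4.83 in resolving lung replicate 1 and below the dim level in replicates 2 and 3, with Ifi204 above it also in 1 control lung array (3.74) and 1 spleen array (3.55). Their fitted differences of 0.34 and 0.49 from control lung became 0.068 and -0.033 without resolving lung replicate 1. Mefv was dim in every control lung array, and its bound from the dim level there was -0.55, so no rise is bounded. Aim2, the sensor of cytosolic DNA, was bright throughout, at 7.71, 7.79 and 7.71 in resolving lung, against 7.48, 7.64 and 7.51 in control lung (0.19, SE 0.065, adjusted p = 0.230). The Toll-like receptors Tlr4, for lipopolysaccharide, and Tlr5, for flagellin, exceeded the dim level in resolving lung replicate 1 alone of the 9 arrays. Myd88, the adaptor of both, was at 8.23, 8.27 and 8.23 in resolving lung, against 8.01, 7.93 and 8.22 in control lung (0.19, SE 0.085, adjusted p = 0.362). Nek7, the partner kinase of Nlrp3, was at 9.28, 9.44 and 9.41 in resolving lung, against 9.43, 9.37 and 9.47 in control lung, with overlap (-0.044, SE 0.075, adjusted p = 0.845).

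Against spleen, 7 of these 49 genes passed the threshold in resolving lung, 6 higher and 1 lower, beside 2.65% of all genes higher and 2.82% lower. P2rx7 fell, to 8.31, 8.53 and 8.52 in resolving lung, against 9.11, 9.28 and 9.36 in resolving spleen (log2 difference -0.80, SE 0.13, adjusted p = 0.0133; 0.0538 at most without 1 array). In control lung it was lower still beside spleen, at 7.76, 8.14 and 7.68 (-1.39, SE 0.13, adjusted p = 0.00109), a call kept without any 1 of the 9 arrays. Il18r1, the receptor chain for the Casp1 product interleukin-18, rose to 8.47, 8.48 and 8.32 in resolving lung, against 7.36, 7.69 and 7.61 in spleen (0.87, SE 0.10, adjusted p = 0.00364), kept without any 1 array. Ripk3 rose by 0.62 (SE 0.096, adjusted p = 0.00967), a call also kept without any 1 array. With replicate number as a block over all 9 arrays, control lung included, these calls stayed. The limma adjusted p against spleen was then 0.0172 for P2rx7, 0.00829 for Il18r1 and 0.0271 for Ripk3 in resolving lung.

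Calls of Gbp3, Il1r1 and Il1b were less stable when 1 array was left out. Gbp3 rose by 0.47 (SE 0.097, adjusted p = 0.0298), a call lost with replicate number as a block (adjusted p = 0.0642), and Il1r1 by 1.89 (SE 0.43, adjusted p = 0.0433). Il1b was at 10.01, 6.59 and 6.40 in resolving lung, against 4.03, 3.44 and 2.44 in spleen (4.37, SE 1.03, adjusted p = 0.0480). Without resolving lung replicate 1 these became 0.38 (adjusted p = 0.0509), 1.57 (0.0939) and 3.19 (0.0565), and Il1r1 and Il1b each kept the call in 1 of 9 such fits and Gbp3 in 3. With the block and all arrays, the limma adjusted p was smaller for Il1r1 (0.00934) and Il1b (0.0109). Il1a, not called in the fit of all genes without a block (adjusted p = 0.0930), passed with the block (0.0179) and when only genes above the dim level in at least 3 arrays were tested (0.0418). In control lung against spleen 5 of 49 passed, 1 higher and 4 lower, beside 2.67% of all genes higher and 3.49% lower. P2rx7, Casp8 (-0.61, SE 0.081, adjusted p = 0.00473), Il18bp, the soluble trap of interleukin-18 (-0.91, SE 0.22, adjusted p = 0.0472), and Gm12250 (-0.91, SE 0.16, adjusted p = 0.0140) fell, and Il18r1 rose (0.56, SE 0.10, adjusted p = 0.0168). Of these, the Casp8 call was kept without any 1 array, while Il18bp, Gm12250 and Il18r1 kept theirs in 2, 5 and 6 of 9 such fits.

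**Figure D4:**
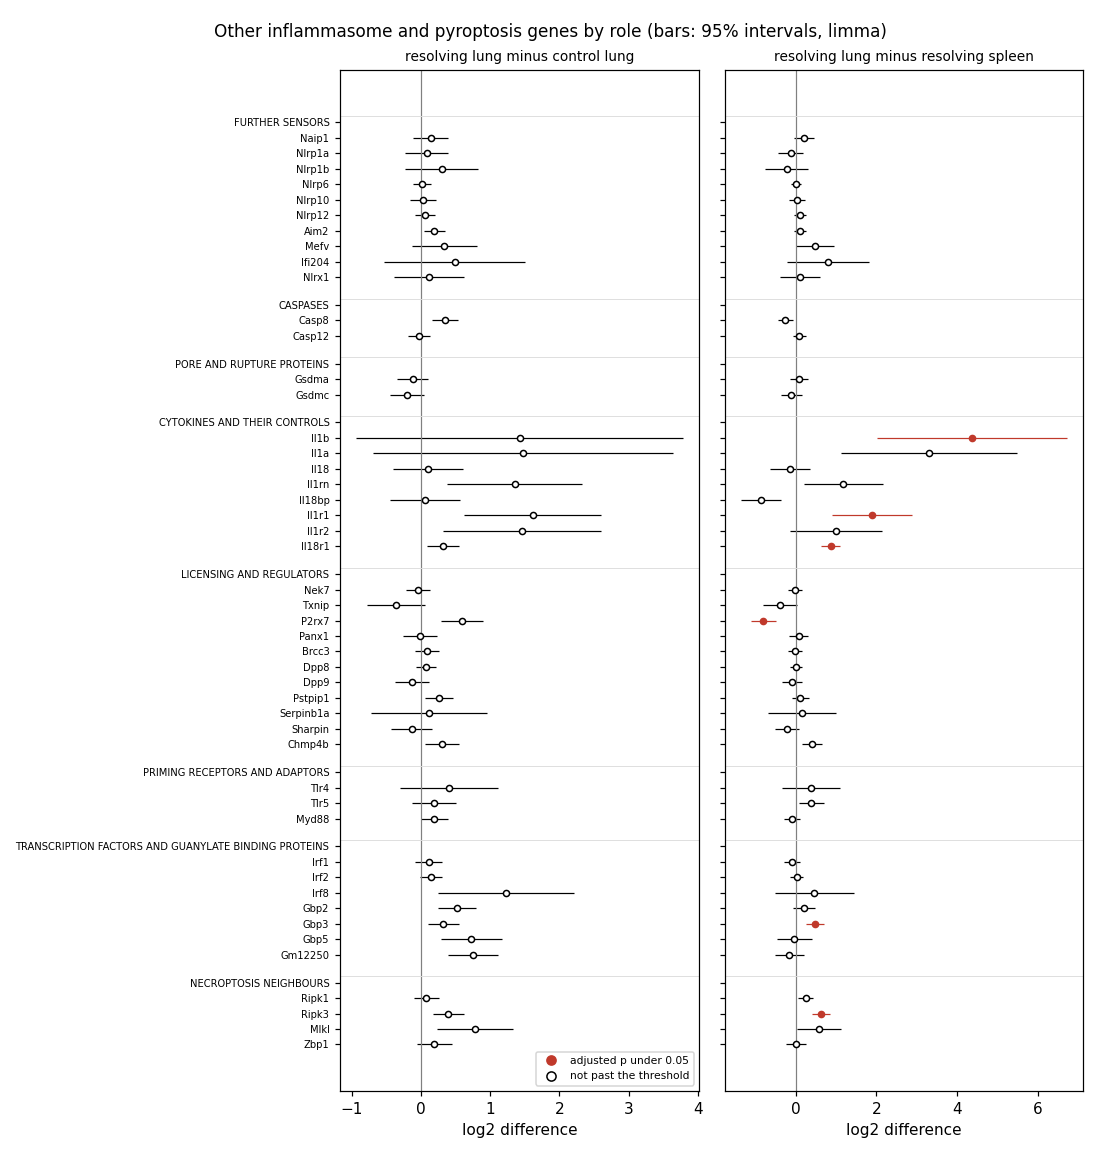
Log2 differences (x axes) of 47 of the further genes, grouped by role from top to bottom, in resolving lung minus control lung (left) and resolving lung minus resolving spleen (right), with 95% intervals from limma and red points for an adjusted p under 0.05. No point on the left is red. There 39 of 47 lie above 0, beside 52.5% of all genes, and the 47 include 8 genes that were dim in all 9 arrays. On the right 5 genes are higher and P2rx7 is lower.

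The genes whose pattern over the 9 arrays was most like that of Naip2, among 9875 named genes above the dim level in at least 3 arrays, were Ncmap (Pearson r 0.97), Sephs2 (0.96), Arl6ip1 (0.96), Actr2 (0.95) and Ift43 (0.95). They were chosen for that likeness, no inflammasome gene was among the 5, and the arrays they share fall into 3 groups. Among the members, Naip2 correlated with Casp4 at 0.83, Casp1 at 0.74, Nlrp3 at 0.72 and Pycard at 0.66. Its correlations with Nlrc4 and Gsdmd were 0.39 and 0.11, and with Naip6 and Naip5 0.30 and 0.031. These values were not tested. Ncmap was at 6.11, 5.71 and 5.43 in resolving lung, against 4.52, 5.05 and 5.0 in control lung and 4.68, 5.01 and 4.92 in resolving spleen. As with Naip2, its resolving lung arrays lay above all others.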

How the data were processed

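RNA of sorted Tregs was hybridised to 1 array per sample, and the deposited table held log2 expression values in 31351 rows. RMA, Expression Console and Partek are named per the submitters' processing notes, with roles and versions not given in the sources used here. RMA in general makes arrays alike in distribution and compresses changes of dim genes. The log2 scale was read from the values (1.07 to 12.85). Through the RefSeq gene list (GRCm38.p6, names alone), 21053 rows matched 1 symbol and 10298 (32.8%) stayed unnamed. Of rows sharing a symbol the brightest stood for the gene, which left 21019 genes.

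All 9 arrays were fitted with limma 3.58.1 (R 4.3.3, eBayes without trend or block, 6 residual and 2.29 prior degrees of freedom), two-sided, called at a Benjamini-Hochberg adjusted p under 0.05, after a test on simulated data. Intervals are 95% and cover 1 gene each. Where a gene was dim in every array of a group, its difference is given as a bound from that group's dim level. The number of arrays limited the precision. The 9 members and all lists were chosen with earlier results of these data known. All members are named; of the other pathway genes, those called and up to 2 per role with large differences, and a few more chosen after their values were seen (Gbp2, Gbp5, Il1r2, Il18, Aim2, Nek7, Tlr5 and genes named as dim). Of the 49 pathway genes, 2 are in the counts but are not reported here. The groups share replicate numbers. Deviations from the group means of same-numbered resolving lung and spleen arrays correlated at 0.21, 0.18 and 0.23 (replicates 1, 2 and 3) over 9876 genes. They correlated at 0.27, 0.052 and 0.063 in resolving and control lung, and at 0.14, -0.079 and 0.080 in control lung and spleen. Injured and uninjured lungs are not from the same mouse, so such correlations do not show a pairing. The block, fitted over all 9 arrays with control lung included, is thus given only as an alternative setting. In every comparison, adjusted p values are from the fit without the block unless the block is named. The alternatives were other eBayes settings, array weights, median centring, quantile normalization, a dim filter, the 6 arrays compared, all rows, row means, the block, and each array left out. The descriptions of resolving spleen replicates 2 and 3 carry 1 number, but 94.7% of their rows differed, the lowest share of the 9 replicate pairs (95.1% to 96.0% in the others), and they were kept as separate samples.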

Additional observations from a re-analysis of the deposited data

How the results depend on the processing

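Over 20 other settings no tested member passed the threshold in resolving against control lung, and the Naip2 difference there ran from 0.62 to 0.85. Leaving out each array in turn gave 0 to 1 members called in resolving lung against spleen (Nlrp3 without resolving lung replicate 3) and 0 to 1 in control lung against spleen (Naip6 without control lung replicate 2). The same fits gave 3 to 7 and 2 to 9 further pathway genes called in these comparisons, lowest without resolving spleen replicate 3 in both. Testing only genes above the dim level in at least 3 arrays called 1 pathway gene (Gm12250) in resolving against control lung, since fewer genes were tested. Without control and resolving lung replicates 1 together, a setting chosen after seeing the data, 8 passed in control lung against spleen. With replicate number as a block, 0 members were called in any comparison, and 7 and 6 pathway genes against spleen in resolving and control lung. Calls over all genes ran from 0 (the 6 arrays compared alone) to 235 (dim filter) in resolving against control lung, with 15 under the block against 96 without it. They ran from 508 to 1547 in resolving lung against spleen and from 681 to 1793 in control lung against spleen.

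Small differences changed sign, and the cause was not tested. In resolving against control lung, leaving out 1 array gave -0.30 to 0.86 for Naip5, -0.048 to 0.20 for Nlrc4 and -0.072 to 0.12 for Gsdmd. In resolving lung against spleen it gave -0.90 to 0.27 for Naip5, -0.28 to 0.064 for Naip6, -0.041 to 0.18 for Nlrc4 and -0.053 to 0.16 for Gsdmd. In control lung against spleen it gave -0.15 to 0.034 for Naip2, -0.10 to 0.083 for Nlrc4, -0.34 to 0.0032 for Pycard, -0.19 to 0.027 for Casp4 and -0.060 to 0.13 for Gsdmd. Array weights gave -0.21 for Naip5 and -0.014 for Gsdmd in resolving against control lung. In control lung against spleen, Nlrc4 became -0.0045 with median centring and -0.022 with quantile normalization, which gave 0.051 for Naip2. Without control and resolving lung replicates 1 together, Naip5, Nlrc4 and Gsdmd became -0.60, -0.071 and -0.065 in resolving against control lung. Nlrc4 and Gsdmd then became -0.041 and -0.053 in resolving lung against spleen, and Pycard and Casp4 0.0032 and 0.027 in control lung against spleen. Nlrc4 is dim in every array, so its sign carries no information.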
